A study of Mus musculus with 6 samples.

Results

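The cytochrome P450 enzymes were compared between villi of Trpm7-intestine KO mice and villi of their control littermates. The family was taken up with earlier results of these data known. Its members were then set by gene symbol and not by a measured value. They are genes whose symbol starts with Cyp followed by a family number and that have a probe set of their own. Of 87 such genes 3 are not reported here, and the rest were grouped by subfamily, the letter or letters after the family number. They came to 84 of 19938 genes with a single symbol, each with 1 own probe set among 30177 on the array, and to 35 subfamilies, of which 26 held 1 member. Mutant mice were *Trpm7* fl/fl;Villin1-Cre and controls were *Trpm7* fl/fl, and all were taken at 5 days of age (P5). C57BL/6 is the background in the labels, whereas by the methods only the Villin1-Cre line was C57BL/6J and the floxed line came from a different strain, and both groups carried the floxed alleles. Villin1-Cre recombines in enterocytes of the whole intestine, which leaves connective tissue, vessels and immune cells of the villus with the intact gene. Each group had 3 replicates with 1 Affymetrix array each, and the labels do not say whether a replicate is 1 pup.

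P450 enzymes are heme proteins that insert an oxygen atom into their substrates, with electrons from NADPH passed on by a reductase in the endoplasmic reticulum or by ferredoxin in mitochondria. Families 1 to 3 include most of the enzymes that act on drugs and other foreign compounds, family 4 hydroxylates fatty acids near the end of the chain, and the higher families mostly act on sterols, bile acids, vitamins A and D and steroid hormones. In the intestine they are found mainly in enterocytes, where they meet compounds from food and bile, and many are under the control of nuclear receptors such as PXR, CAR and PPAR-alpha or of the aryl hydrocarbon receptor.

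The 250 bases before the start of 4 genes are shown, because these are the genes changed at least 2-fold that have an entry in the promoter table used here (RefSeq, GRCm38.p6), and because *Cyp3a13* rose while *Cyp3a25* of the same subfamily fell. *Cyp3a13* (minus strand) covers chr5:137921620-137921869, *Cyp3a25* (minus strand) chr5:146009619-146009868, *Cyp2w1* (plus strand) chr5:139352366-139352615 and *Cyp2c55* (plus strand) chr19:39006769-39007018. The first listed start of each gene was used, and *Cyp3a25* is the only one of the 4 with a 2nd start in the table. Each window reads from 5′ to 3′ toward the start of the gene, and capitals mark matches to any of 6 motifs searched on both strands.
Cyp3a13: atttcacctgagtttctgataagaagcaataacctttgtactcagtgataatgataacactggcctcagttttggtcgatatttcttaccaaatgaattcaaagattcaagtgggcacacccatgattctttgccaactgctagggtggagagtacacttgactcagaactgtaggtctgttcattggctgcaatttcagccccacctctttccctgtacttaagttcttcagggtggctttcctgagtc
Cyp3a25: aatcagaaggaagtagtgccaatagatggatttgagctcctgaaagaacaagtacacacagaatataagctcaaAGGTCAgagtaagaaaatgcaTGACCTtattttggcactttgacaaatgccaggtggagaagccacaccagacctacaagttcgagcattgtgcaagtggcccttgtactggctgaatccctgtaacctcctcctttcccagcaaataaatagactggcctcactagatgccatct
Cyp2w1: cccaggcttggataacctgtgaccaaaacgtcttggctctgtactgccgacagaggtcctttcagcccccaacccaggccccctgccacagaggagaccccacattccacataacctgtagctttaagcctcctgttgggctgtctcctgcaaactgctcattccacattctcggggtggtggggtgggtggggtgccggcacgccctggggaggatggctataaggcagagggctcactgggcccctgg
Cyp2c55: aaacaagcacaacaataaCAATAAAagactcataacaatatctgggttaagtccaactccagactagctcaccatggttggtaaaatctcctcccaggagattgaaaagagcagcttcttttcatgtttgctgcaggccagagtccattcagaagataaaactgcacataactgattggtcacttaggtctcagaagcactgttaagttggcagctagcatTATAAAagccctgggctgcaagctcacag

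The motifs were a TATA box (TATAAA), the half-site of nuclear receptors (AGGTCA), the xenobiotic response element of the aryl hydrocarbon receptor (TNGCGTG), the core of the antioxidant response element (TGACNNNGC), the core bound by HNF1 and the core bound by CDX factors (TTTATNG). The *Cyp3a25* window held AGGTCA at 176 bases and its reverse complement TGACCT at 155 bases before the start, whereas the *Cyp3a13* window held none of the 6 motifs. Aligned over 250 bases, the *Cyp3a13* and *Cyp3a25* windows were identical at 47.5% of columns, against 43.7% to 50% for the other pairs of the 4 windows. The *Cyp2c55* window held TATAAA at 29 bases and the reverse complement of the CDX core, CAATAAA, at 232 bases before the start, and the *Cyp2w1* window held none. Across the 62 members with an entry, 37.1% of windows held TATAAA, against 13% of the windows of all 27025 genes, and 22.6% held AGGTCA, against 13.8%. The xenobiotic response element was in 1 of the members' windows (1.61%), against 4.16% of all windows. The antioxidant core was in 2 (3.23%, against 10.1%), the HNF1 core in 1 (1.61%, against 0.411%) and the CDX core in 9 (14.5%, against 10.2%). A match describes the letters of these windows and is not a bound site.

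Before the members, the arrays were checked against their labels. The array median lay between 6.24 and 6.3 on the log2 scale in all 6. *Trpm7* had log2 signals of 8.03, 7.79 and 7.88 in mutant villi and of 9.11, 8.96 and 9.03 in control villi, a fall by 1.13 (adjusted p = 0.00019 from limma). No source used here says whether its probe set lies in the deleted part. All 10 enterocyte markers lay above the level of olfactory receptor probe sets described below. Control replicates 2 and 3 both held *Xist* (9.82 and 9.66) together with Y-linked transcripts (*Eif2s3y* 7.71 and 7.84), while each other array held only one kind, and the labels give the sex as unknown. The log2 signals of these 2 controls differed from each other with an SD of 0.18, against 0.24 to 0.28 for the other pairs within a group, so counts are also given below with these 2 averaged or left out. Mutant replicate 3 had a summed linear signal of 9744 over 9 hepatocyte markers, against 362 and 875 in the other mutant replicates and 423 to 505 in the controls, and its effect on single members is given with them.

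Of the 84 members, 7 rose and 9 fell in mutant villi at an adjusted p of 0.05 or less (limma, adjusted by Benjamini-Hochberg over the 30177 probe sets). These 16 members made up 19% of the list, against 16.9% of all probe sets called. By direction, 8.33% of members rose, against 8.04% of all probe sets, and 10.7% fell, against 8.82%, so these shares lay close to the background. For changes of at least 2-fold the members' share was 9.52%, against 2.53% of all probe sets. This came from 6 members that fell (7.14%, against 1.17%) and 2 that rose (2.38%, against 1.35%). Among the falls, *Cyp4a10* and *Cyp4a31* are close in sequence and may share signal. Of the rises, *Cyp2c55* lay just at the limit (2.00-fold). The median change over the members was 0.03 on the log2 scale, against 0.0033 over all probe sets, and the median absolute change was 0.16, against 0.13. Mutant and control replicates did not overlap for 25 members, 29.8% of the list, against 34.5% of all probe sets. Here n counts arrays, and an exact permutation test of 3 against 3 could not give a p under 0.1. In whole villi, fewer cells of a type and less RNA per cell cannot be told apart.

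**Figure D1:**
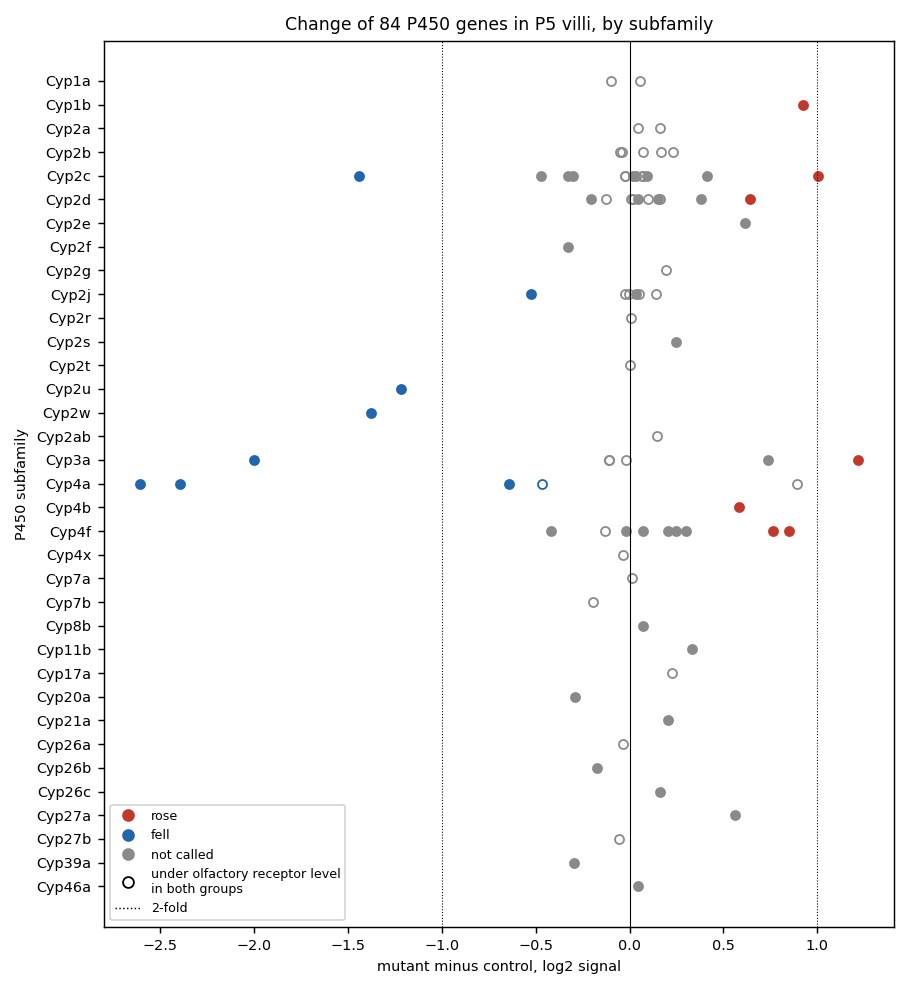
Change of each of the 84 P450 genes, 1 row per subfamily, as the log2 signal of mutant villi minus that of control villi on the horizontal axis. Red and blue points rose or fell at an adjusted p of 0.05 or less, open points lay under the olfactory receptor level in both groups, and dotted lines mark a 2-fold change. The Cyp4a and Cyp3a rows reach farthest to the left, with *Cyp4a10* at -2.61, and the Cyp3a and Cyp2c rows hold both risen and fallen genes.

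The deposited table holds no detection call, so the 95th percentile of 1035 olfactory receptor probe sets, 5.33 in either group, served as a rough level of unexpressed transcripts. In mutant or in control villi 45 members lay above it and 39 lay under it in both, 46.4% of the members, against 32.7% of all probe sets. Of the 16 called members 15 lay above it, and *Cyp4a12b* was called while under it. A member passes by its higher group alone, so this count partly follows from the calls. *Cyp1b1* had a mean of 5.12 in control villi, under the level. In mutant villi *Cyp4a12a* (4.79) and *Cyp4a31* (4.98) had means under it. The 68 members that were not called had changes from -0.47 for *Cyp2c68* to 0.89 for *Cyp4a14*. The calls fell in 10 subfamilies, and 2 of these, 2c and 3a, held both a rise and a fall.

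Among the enzymes that handle foreign compounds, families 1 and 3, 2 of 9 members rose and 1 fell, beside 16.9% of all probe sets called. *Cyp3a13*, a family 3 enzyme known to be expressed in mouse intestine, had log2 signals of 12.40, 12.48 and 12.23 in mutant villi and of 11.24, 11.07 and 11.14 in control villi. All mutant replicates lay above all controls, and the change of 1.22 ± 0.09 (SE; adjusted p = 0.00016) was a 2.33-fold rise. *Cyp3a25*, of the same subfamily, had signals of 6.58, 5.99 and 6.48 in mutant villi and of 8.0, 8.53 and 8.53 in control villi. Its mutant replicates all lay below the controls, and it fell by 2.00 ± 0.19 on the log2 scale (adjusted p = 0.00047), a 4.01-fold difference. A probe set shared by *Cyp3a59*, *Cyp3a57* and *Cyp3a25* also fell, by 1.93 (adjusted p = 0.00087), while the own probe set of *Cyp3a57* did not pass the test (-0.11, adjusted p = 0.46) and lay under the olfactory receptor level. The shared probe set may repeat the signal of *Cyp3a25* and is not a separate gene.

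*Cyp3a11*, the main Cyp3a of adult mouse liver and a classical target of PXR, had signals of 7.14, 6.20 and 7.13 in mutant villi and of 5.63, 6.27 and 6.35 in control villi. Mutant replicate 2 lay among the controls, and the change of 0.74 did not pass the test (adjusted p = 0.12). *Cyp3a16* and *Cyp3a44* had differences (mutant minus control) of -0.11 and -0.02, and both lay under the olfactory receptor level. *Cyp1b1*, an enzyme of the aryl hydrocarbon receptor's target set that is known mainly outside the liver, had 5.76, 6.37 and 6.02 in mutant villi and 4.71, 5.17 and 5.49 in control villi. The groups did not overlap, and *Cyp1b1* rose by 0.93 ± 0.21 (adjusted p = 0.022). Its call was lost when control replicate 2 (0.95, adjusted p = 0.060), mutant replicate 2 (0.77, adjusted p = 0.077) or mutant replicate 3 (0.94, adjusted p = 0.054) was left out. *Cyp1a1* and *Cyp1a2*, the best known targets of the same receptor, lay under the olfactory receptor level in both groups and had differences of -0.10 and 0.06 (adjusted p = 0.53 and 0.75). Of 7 fibroblast markers, *Dcn* rose by 1.03 and *Pdgfra* by 0.56, and 5 were not called, beside 16.9% of all probe sets called. *Col1a1*, *Col1a2*, *Col3a1* and *Lum* had differences of 0.16 to 0.21, and *Dpt* had -0.40. The summed linear signal of the list, with the 2 called markers in it, was 2047 to 2671 in mutant villi and 1401 to 1881 in control villi. The part of these cells in the rise of *Cyp1b1* was not tested.

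**Figure D2:**
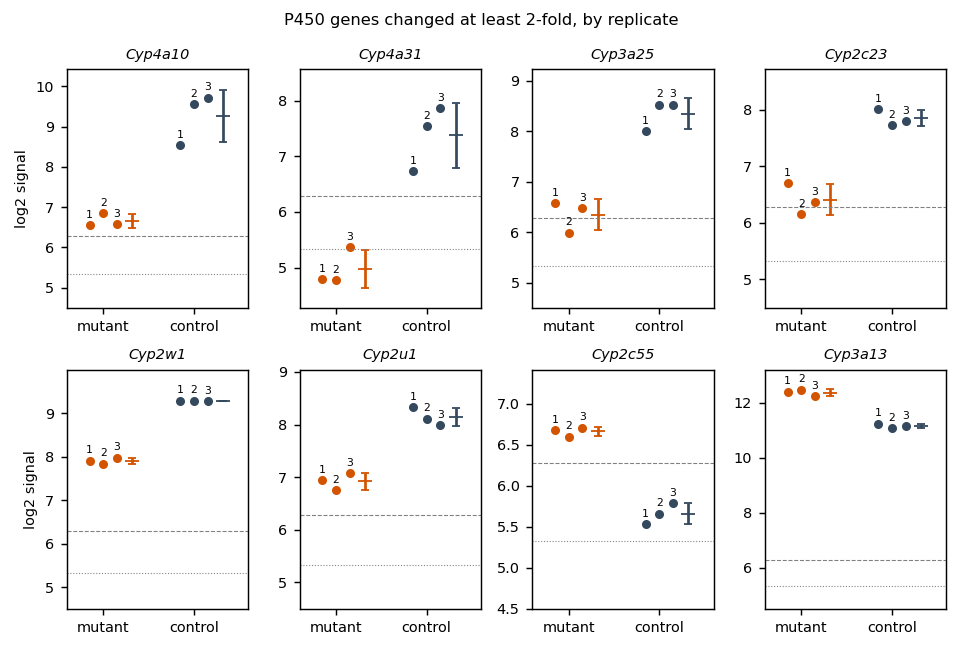
Log2 signal in each replicate of the 8 P450 genes called with a change of at least 2-fold, mutant villi on the left and control villi on the right of each panel, with the mean and SD beside the points (n = 3 each). The dotted line is the olfactory receptor level (5.33) and the dashed line the median of all probe sets (6.28), and the vertical axes differ between panels. The groups do not overlap in any panel, and control replicate 1 is the lowest control for *Cyp4a10*, *Cyp4a31*, *Cyp3a25* and *Cyp2c55*.

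Subfamilies 2c and 2j include enzymes that turn arachidonic acid into epoxides and hydroxy acids. Of their 19 members 1 rose and 2 fell, beside 16.9% of all probe sets called. *Cyp2c55*, an enzyme of this kind known from mouse colon, had signals of 6.68, 6.60 and 6.71 in mutant villi and of 5.53, 5.66 and 5.79 in control villi. The groups were apart by more than their own spread, and the rise of 1.00 ± 0.09 (adjusted p = 0.00031) was 2.00-fold, just at the limit, so that its place among the 2-fold changes varied with the processing. *Cyp2c23*, an arachidonic acid epoxygenase, had signals of 6.70, 6.15 and 6.37 in mutant villi and of 8.01, 7.73 and 7.80 in control villi. It fell by 1.44 ± 0.14 (adjusted p = 0.00057), a 2.71-fold difference with every mutant replicate below every control.

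The other 11 members of 2c did not pass the test. *Cyp2c65* and *Cyp2c66*, which are known from the intestine, had changes of 0.09 and -0.30 (adjusted p = 0.74 and 0.28), and both groups of *Cyp2c65* overlapped, with 10.49, 10.01 and 9.86 in mutant villi and 10.01, 9.99 and 10.08 in control villi. *Cyp2c68* had signals of 8.69, 8.13 and 8.43 in mutant villi and of 8.88, 8.79 and 9.0 in control villi, a change of -0.47 that missed the threshold with no overlap (adjusted p = 0.054). A probe set shared by *Cyp2c69*, *Cyp2c67*, *Cyp2c68* and *Cyp2c40* fell by 0.38 (adjusted p = 0.021). *Cyp2c70* had a change of 0.41 (adjusted p = 0.11). In subfamily 2j, *Cyp2j9* had 5.75, 6.05 and 5.72 in mutant villi and 6.07, 6.52 and 6.51 in control villi. Mutant replicate 2 and control replicate 1 were almost level, and the fall by 0.53 ± 0.14 (adjusted p = 0.043) was lost without control replicate 2 or 3 or mutant replicate 1 or 3 (changes from -0.48 to -0.45, adjusted p from 0.12 to 0.14). *Cyp2j6*, which is known from mouse intestine, had a difference of 0.03 with overlapping groups.

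The remaining subfamilies of family 2 held 26 members, of which 1 rose and 2 fell, beside 16.9% of all probe sets called. The 2 falls were single-member subfamilies. *Cyp2w1*, an enzyme of uncertain substrate that is known from fetal colon and colon tumours, had signals of 7.91, 7.84 and 7.98 in mutant villi and of 9.29, 9.29 and 9.28 in control villi. The replicates of each group lay close together, and it fell by 1.38 ± 0.07 (adjusted p = 4.2e-05), a 2.60-fold difference with the lowest p among the members. *Cyp2u1*, a hydroxylase of long-chain fatty acids, had 6.95, 6.75 and 7.07 in mutant villi and 8.33, 8.11 and 7.99 in control villi. It fell by 1.22 ± 0.12 (adjusted p = 0.00047), a 2.33-fold difference without overlap.

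All 5 measured goblet cell markers fell, and their summed linear signal was 3381 to 3765 in mutant villi and 21501 to 23144 in control villi. By qPCR of whole duodenum, another preparation, the authors found the goblet cell marker *Muc2* not altered. Falls were also called for 2 of 5 Paneth, 2 of 5 enteroendocrine and 2 of 5 endothelial markers, beside 2, 1 and 0 rises. Over all probe sets 8.82% fell and 8.04% rose. Of 3 colon markers the water channel *Aqp8* fell by 4.71 (adjusted p = 4.7e-06), with 6.51, 6.21 and 6.72 in mutant villi and 11.20, 11.16 and 11.21 in control villi, whereas *Car1* and *Hoxb13* had differences of 0.37 and 0.12 and were not called. Of 5 markers of the proximal small intestine, 4 fell. Of the 10 enterocyte markers 3 rose and none fell, with sums of 104329 to 108574 in mutant villi and 98239 to 100073 in control villi. The part of these cell types and regions in the changes of the P450 genes was not tested.

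*Cyp2d22* rose as the only called member of the 10 in subfamily 2d. It is held to be the mouse counterpart of human CYP2D6, an enzyme that oxidises many drugs, and had signals of 7.33, 7.62 and 7.37 in mutant villi and of 6.87, 6.82 and 6.70 in control villi. The groups did not overlap, and the rise was 0.64 ± 0.10 (adjusted p = 0.0039). *Cyp2d26* had 11.30, 11.69 and 10.83 in mutant villi and 10.70, 10.98 and 11 in control villi, a change of 0.38 with overlapping groups (adjusted p = 0.26). *Cyp2f2*, known from the airways, had a difference of -0.33 without overlap and missed the threshold (adjusted p = 0.052), and it was called without control replicate 3 (-0.42, adjusted p = 0.025) and under 5 other alternatives (adjusted p from 0.026 to 0.044). *Cyp2s1*, an enzyme of epithelia, had a difference of 0.25 (adjusted p = 0.18). All 5 members of 2b and both of 2a lay under the olfactory receptor level.

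Family 4 had the most calls, 7 of 16 members, beside 16.9% of all probe sets called, with 3 rises and 4 falls. The calls of *Cyp4a12a*, *Cyp4a12b*, *Cyp4f14* and *Cyp4b1* among them did not hold when single replicates were left out, as given below. All 4 falls were in subfamily 4a, whose enzymes hydroxylate fatty acids at the chain's end and include classical targets of PPAR-alpha, such as *Cyp4a10*. *Cyp4a10* had signals of 6.55, 6.85 and 6.57 in mutant villi and of 8.53, 9.55 and 9.72 in control villi. It fell by 2.61 ± 0.28 (adjusted p = 0.00078), a 6.11-fold difference, and every mutant replicate lay below every control although control replicate 1 was about 1 log2 unit under the other controls. *Cyp4a31* had 4.79, 4.78 and 5.37 in mutant villi and 6.73, 7.54 and 7.86 in control villi. It fell by 2.40 ± 0.28 (adjusted p = 0.0012), a 5.27-fold difference, and only mutant replicate 3 exceeded the olfactory receptor level among the mutants. A probe set shared by *Cyp4a32*, *Cyp4a31* and *Cyp4a10* fell by 2.67 (adjusted p = 0.00075). These genes are close in sequence, so their probe sets may share signal and are not independent of each other.

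*Cyp4a12a*, which makes the end-hydroxylated product of arachidonic acid, had signals of 4.62, 4.92 and 4.82 in mutant villi and of 5.64, 5.53 and 5.11 in control villi. It fell by 0.64 ± 0.15 (adjusted p = 0.021), and the call was lost without control replicate 1 (-0.53, adjusted p = 0.060), control replicate 2 (-0.59, adjusted p = 0.074) or mutant replicate 1 (-0.56, adjusted p = 0.070). *Cyp4a12b*, its near copy, fell by 0.47 (adjusted p = 0.029) while under the olfactory receptor level in both groups. That call was lost without any 1 replicate other than mutant replicate 3 (changes from -0.49 to -0.37, adjusted p from 0.069 to 0.088). *Cyp4a14*, the remaining member of 4a and also a PPAR-alpha target, had 4.14, 4.49 and 5.97 in mutant villi and 3.79, 4.14 and 4.0 in control villi. Its change of 0.89 did not pass the test (adjusted p = 0.20), and the value of mutant replicate 3, the array with the hepatocyte markers, stood far above the rest.

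The 3 rises in family 4 were *Cyp4f40*, *Cyp4f14* and *Cyp4b1*, all under 2-fold. *Cyp4f40* had signals of 6.45, 6.14 and 6.25 in mutant villi and of 5.22, 5.58 and 5.49 in control villi. The groups did not overlap, and it rose by 0.85 ± 0.12 (adjusted p = 0.0026). *Cyp4f14*, a leukotriene hydroxylase, had 7.45, 7.43 and 6.79 in mutant villi and 6.53, 6.45 and 6.40 in control villi. Mutant replicate 3 lay nearest to the controls, and *Cyp4f14* rose by 0.76 ± 0.17 (adjusted p = 0.019). *Cyp4b1*, which oxidises fatty acids and some toxins of the lung, had 6.60, 6.78 and 6.24 in mutant villi and 6.11, 5.98 and 5.78 in control villi and rose by 0.58 ± 0.15 (adjusted p = 0.031). The calls of *Cyp4f14* and *Cyp4b1* were both lost without control replicate 2 or 3 or mutant replicate 1 or 2, with changes from 0.65 to 0.76 and adjusted p from 0.059 to 0.072 for *Cyp4f14*, and with changes from 0.46 to 0.59 and adjusted p from 0.079 to 0.10 for *Cyp4b1*. The other 7 members of 4f did not pass the test, among them *Cyp4f13* (0.07, adjusted p = 0.61) and *Cyp4f16* (-0.42, adjusted p = 0.26). A probe set shared by *Cyp4v3* and its neighbour *Klkb1* fell by 0.86 (adjusted p = 0.00079), and the 2 genes cannot be told apart there.

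**Figure D3:**
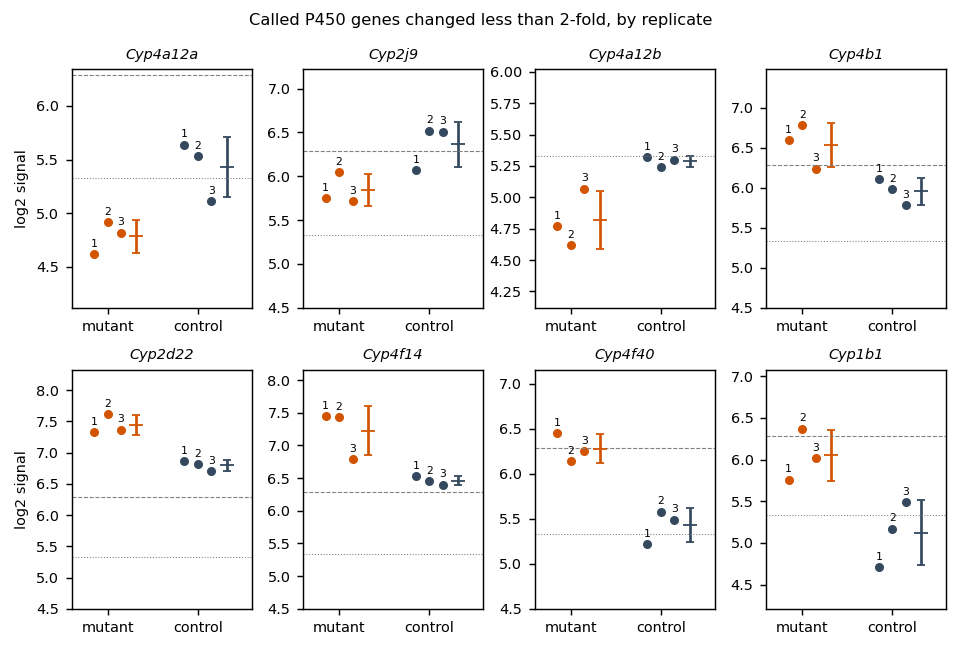
Log2 signal in each replicate of the 8 P450 genes called with a change under 2-fold, mutant villi on the left and control villi on the right of each panel, with the mean and SD beside the points (n = 3 each). The dotted line is the olfactory receptor level (5.33) and the dashed line the median of all probe sets (6.28), and the vertical axes differ between panels. *Cyp4f14* and *Cyp4b1* had their lowest mutant value in replicate 3, and all values of *Cyp4a12b* lie under the dotted line.

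None of the 14 members that act on sterols, bile acids, vitamins A and D or steroid hormones, or that stand alone as family 20, was called by limma, and 5 of them had an unadjusted p under 0.05, as did 26 of all 84 members (31%) and 29.3% of all probe sets. *Cyp27a1*, the mitochondrial sterol hydroxylase that opens the alternative path of bile acid synthesis, came nearest among the sterol enzymes, with 6.64, 6.55 and 6.03 in mutant villi and 5.63, 6.07 and 5.83 in control villi. Mutant replicate 3 lay among the controls, and the change of 0.56 (adjusted p = 0.066) was called without that replicate (0.75, adjusted p = 0.012). *Cyp8b1* and *Cyp39a1*, which act on bile acid precursors and on an oxysterol, had differences of 0.07 and -0.30 (adjusted p = 0.66 and 0.22). *Cyp46a1*, the cholesterol hydroxylase of the brain, had a difference of 0.04. *Cyp7a1*, the rate-limiting enzyme of bile acid synthesis in liver, *Cyp7b1*, an oxysterol hydroxylase, and *Cyp27b1*, which activates vitamin D, all lay under the olfactory receptor level, as did *Cyp2r1*, the vitamin D hydroxylase of family 2.

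Of the retinoic acid hydroxylases, *Cyp26b1* had 6.32, 6.35 and 6.18 in mutant villi and 6.57, 6.44 and 6.36 in control villi, a change of -0.17 without overlap that did not pass the test (adjusted p = 0.24). *Cyp26c1* had a difference of 0.16 (adjusted p = 0.22), and *Cyp26a1* lay under the olfactory receptor level with a change of -0.03. Of the steroid hormone enzymes, *Cyp11b2* had a difference of 0.33 (adjusted p = 0.085), *Cyp21a1* of 0.21 (adjusted p = 0.16) and *Cyp17a1* of 0.23 (adjusted p = 0.062), each without overlap. *Cyp17a1* lay under the olfactory receptor level and was called with array weights (0.23, adjusted p = 0.048). *Cyp20a1*, an enzyme with no settled substrate, had 7.58, 7.17 and 7.50 in mutant villi and 7.77, 7.57 and 7.79 in control villi, a change of -0.29 (adjusted p = 0.15). The single-member subfamilies not yet named lay between -0.03 for *Cyp4x1* and 0.62 for *Cyp2e1*, with *Cyp2g1* at 0.19, *Cyp2ab1* at 0.15 and *Cyp2t4* at 0.00.

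Some members were high in mutant replicate 3 alone. *Cyp2e1*, the ethanol-oxidising enzyme of liver, was at 6.67 there and at most at 5.27 in the other 5 arrays. *Cyp4a14* was at 5.97, against at most 4.49, and *Cyp2a12* at 5.57, against at most 4.72. *Cyp2b9* was at 4.64, against at most 3.91, and *Cyp4f18*, a leukotriene hydroxylase of neutrophils, at 5.81, against at most 5.27. On the same array albumin (*Alb*) was at 12.13, against 5.55 and 8.57 in the other mutant replicates and 5.69 to 7.07 in the controls. The neutrophil markers also had their highest summed linear signal there, 2543, against 621 and 1012 in the other mutant replicates and 225 to 237 in the controls. None of these 5 members was called, and the part of liver or neutrophil RNA in their values was not tested. The falls of at least 2-fold did not rest on this array, since all 6 were also called without it.

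**Figure D4:**
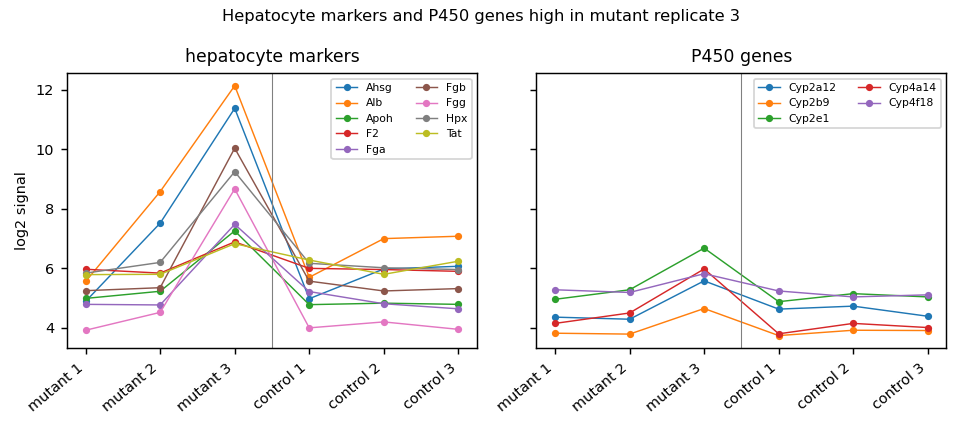
Log2 signal on each of the 6 arrays of 9 hepatocyte markers (left) and of the 5 P450 genes that were high in mutant replicate 3 alone (right), with mutant arrays left and control arrays right of the vertical line. Lines join the values of a gene only to guide the eye. *Alb* reaches 12.13 and *Cyp2e1* 6.67 in mutant replicate 3.

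P450 genes lie in clusters of close relatives. In the RefSeq gene order (GRCm38.p6), 81 members had a place, and 60 of them lay in 9 clusters with at most 5 other protein-coding genes between neighbours. In the cluster that holds Cyp4a the order is *Cyp4x1*, *Cyp4a29*, *Cyp4a12a*, *Cyp4a12b*, *Cyp4a30b*, *Cyp4a14*, *Cyp4a10*, *Cyp4a31*, *Cyp4a32* and *Cyp4b1*, with 0 other protein-coding genes between them. Of these, 4 fell, *Cyp4b1* at the end rose, *Cyp4x1* at the other end and *Cyp4a14* between the falls were not called, and *Cyp4a29*, *Cyp4a30b* and *Cyp4a32* had no own probe set. *Cyp3a13* lies outside the Cyp3a cluster, with 34 protein-coding genes between it and *Cyp2w1* and another 86 between *Cyp2w1* and *Cyp3a57*, the first of the cluster, whereas *Cyp3a25* lies inside it. *Cyp2c55* stands at one end of the Cyp2c cluster, and *Cyp2c23*, which fell, is separated from the other end by 52 protein-coding genes. The 2 subfamilies with both a rise and a fall therefore each had 1 of the 2 genes outside the cluster.

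The enzymes and regulators that P450 proteins depend on were counted from lists of genes, beside 16.9% of all probe sets called. These lists were drawn up with earlier results of these data known, so their shares are a description only. Of 7 measured electron donors and heme-protein partners, 3 rose and 1 fell, with a median change of 0.29. *Pgrmc1*, a membrane heme protein that binds P450 enzymes, had 11.06, 11.14 and 10.82 in mutant villi and 10.48, 10.48 and 10.58 in control villi, and rose by 0.49 (adjusted p = 0.012). *Cyb5r1*, a cytochrome b5 reductase, also rose by 0.49 (adjusted p = 0.0099). *Pgrmc2*, the close relative of *Pgrmc1*, had 9.13, 9.14 and 9.25 in mutant villi and 10.21, 10.29 and 10.31 in control villi. It fell by 1.10 (adjusted p = 0.00011), so that the 2 relatives changed in opposite directions without overlap. The P450 reductase gene *Por* had no probe set of its own and was not analysed here.

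Of 9 genes of heme synthesis and breakdown, 2 fell and none rose, with a median change of -0.15. *Alas1*, the rate-limiting enzyme of heme synthesis, had 8.86, 8.81 and 9.20 in mutant villi and 9.75, 9.80 and 9.77 in control villi. It fell by 0.82 (adjusted p = 0.0021) with no overlap. *Urod*, a later enzyme of the path, fell by 0.27 (adjusted p = 0.045), and this call was lost without any 1 replicate other than mutant replicate 3 (changes from -0.29 to -0.24, adjusted p from 0.068 to 0.14). The heme oxygenase *Hmox1* had 12.91, 12.21 and 9.22 in mutant villi and 8.97, 8.73 and 8.80 in control villi, and its change of 2.61 missed the threshold (adjusted p = 0.065). Mutant replicates 1 and 2 lay far above the controls and replicate 3 close to them.

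Of 21 nuclear receptors and sensors of P450 substrates, 1 rose and 3 fell, with a median change of -0.06. *Ahr*, the aryl hydrocarbon receptor, rose by 0.46 (adjusted p = 0.0043), with 8.51, 8.49 and 8.39 in mutant villi and 8.03, 7.95 and 8.02 in control villi. *Nr0b2*, a corepressor in bile acid signalling known as SHP, fell by 0.94 (adjusted p = 0.0080), and *Nr1h3*, the oxysterol receptor LXR-alpha, fell by 0.56 (adjusted p = 0.0058). The third was *Rxra*, the shared partner of many of these receptors, which fell by 0.44 (adjusted p = 0.020). The receptors *Ppara*, *Nr1i2* (PXR) and *Nr1i3* (CAR) had differences of -0.12, 0.09 and -0.18 and were not called (adjusted p = 0.35, 0.58 and 0.32).

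Target genes of these receptors outside the P450 family were counted in the same way. Of 9 targets of PXR and CAR, 6 rose and none fell, with a median change of 1.09. *Gstm1*, a glutathione transferase, rose by 2.94 (adjusted p = 0.00062), and *Abcb1a*, an efflux pump for drugs, by 2.75 (adjusted p = 2.2e-05). Among the P450 members, the PXR target *Cyp3a11* was not called (0.74, adjusted p = 0.12). The authors found xenobiotic metabolism, cholesterol biosynthesis, glutathione-mediated detoxification and the NRF2 oxidative stress response among the affected networks. They also counted P450 enzymes among the groups that made up most of their highly affected transcripts. Which regulator lay behind the rises in this list was not tested. Of 15 targets of PPAR-alpha, 3 rose and 5 fell, with a median change of -0.20. *Vnn1*, a pantetheinase, rose by 2.36 (adjusted p = 0.00052) and *Angptl4*, an inhibitor of lipoprotein lipase, by 2.04 (adjusted p = 0.00089), whereas *Acot1*, an acyl-CoA thioesterase, fell by 1.09 (adjusted p = 7.5e-05) and *Fabp1*, a fatty acid binding protein, by 0.59 (adjusted p = 0.0026). The falls in Cyp4a thus stood beside PPAR-alpha targets called in both directions. Of 4 targets of the aryl hydrocarbon receptor, the quinone reductase *Nqo1* rose by 2.66 (adjusted p = 0.00021), and 3 were not called. Of these, *Ahrr* and *Aldh3a1* lay under the olfactory receptor level in both groups. Which regulator lay behind the rise of *Nqo1* was not tested either.

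**Figure D5:**
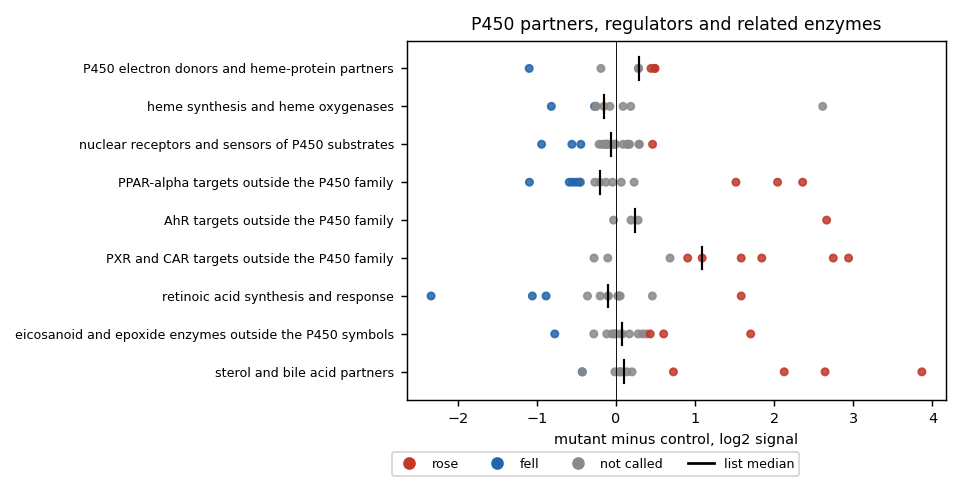
Change of each measured gene in 9 lists of P450 partners, regulators, receptor targets and related enzymes, as the log2 signal of mutant villi minus that of control villi, 1 row per list. Red and blue points rose or fell at an adjusted p of 0.05 or less, grey points were not called, and the black bar is the list's median. Targets of PXR and CAR have the highest median, 1.09, and the grey point at 2.61 in the second row is *Hmox1*.

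The enzymes that share substrates with P450 members were mixed in direction. In retinoic acid synthesis and response 1 of 12 rose and 3 fell, with a median change of -0.10. *Aldh1a1*, a retinaldehyde dehydrogenase, rose by 1.58 (adjusted p = 0.010), while *Lrat*, which stores retinol as esters, fell by 2.34 (adjusted p = 0.00024) and *Dhrs3*, a retinaldehyde reductase, by 1.06 (adjusted p = 0.00013). In eicosanoid and epoxide metabolism 3 of 15 rose and 1 fell, with a median change of 0.08. *Ptgs2*, the inducible prostaglandin synthase, rose by 1.70 (adjusted p = 0.0013), and *Ltc4s*, which makes leukotriene C4, fell by 0.77 (adjusted p = 0.0033). *Ephx1*, an epoxide hydrolase, rose by 0.60 (adjusted p = 0.0094) while under the olfactory receptor level in both groups.

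Among sterol and bile acid partners 4 of 12 rose and 1 fell, with a median change of 0.10. *Fabp6*, the bile acid binding protein of the ileum, had 9.93, 10.82 and 9.87 in mutant villi and 7.82, 5.64 and 5.56 in control villi. It rose by 3.87 (adjusted p = 0.0034), and by 4.61 without control replicate 1, which was the highest control (adjusted p = 0.00030). *Slc10a2*, the bile acid carrier of the ileum, had 8.03, 6.45 and 6.11 in mutant villi and 4.07, 4.43 and 4.16 in control villi. It rose by 2.64 (adjusted p = 0.0052), and by 2.06 without mutant replicate 1, its highest (adjusted p = 0.00054). *Amacr*, a racemase of bile acid synthesis, fell by 0.43 (adjusted p = 0.029), a call lost without control replicate 1 or 2 or mutant replicate 2 or 3 (changes from -0.44 to -0.36, adjusted p from 0.064 to 0.10).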

How the data were processed

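The authors isolated villi from whole intestines, labelled total RNA with biotin by the Affymetrix whole-transcript protocol and hybridised 6 arrays. The table they deposited gives a log2 signal for every probe set on every array. How background, summarisation and normalization were handled is not given in the sources read, and no molecules were counted, so the number of arrays limits the precision. Names came from the platform annotation (21789 probe sets with 1 symbol, 1621 with several, 6767 not listed), updated through RefSeq, and only single symbols named genes. Members, gene lists and tests were chosen with earlier results of these data known.

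Mutant and control arrays were compared with lmFit and eBayes of limma 3.58.1 in R 4.3.3, two-sided, on the deposited values of all 30177 probe sets, with Benjamini-Hochberg adjustment over all of them. Genes with an adjusted p of 0.05 or less were called, and 2-fold needs a log2 change of at least 1 as well. Lists were described by counts and medians, with no test of a list, and summed signals are sums of 2 to the power of the log2 values. The script was tested on simulated data. The text names every member changed at least 2-fold, the called member with the largest change per subfamily and direction, the largest change in subfamilies with no call, the members of families 7, 8, 17, 19, 20, 21, 26, 27, 39 and 46 and of 2r, 2s, 2u and 2w, and up to 2 called genes per list and direction. Other genes, such as *Cyp3a11*, *Cyp4a14*, *Cyp2c65*, *Hmox1*, *Rxra*, *Ppara*, *Nr1i2*, *Nr1i3* and the markers, were named after their values were seen. Alternatives were robust eBayes with a trend, weights per array, a block for the replicate number, quantile normalization, median centring, 2 filters on dim probe sets, an offset of 32, the probe set with the lowest mean, control replicates 2 and 3 averaged or left out, and each replicate left out. Promoter windows were read and aligned with Biopython 1.88, and figures drawn with matplotlib 3.10.9 in Python 3.11.15. No sample was left out of the comparison.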

Additional observations from a re-analysis of the deposited data

How the results depend on the processing

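Of the 16 calls 10 were made under each of the 15 alternatives that kept at least 2 arrays per group and could change a value, those of *Cyp2c23*, *Cyp2c55*, *Cyp2d22*, *Cyp2u1*, *Cyp2w1*, *Cyp3a13*, *Cyp3a25*, *Cyp4a10*, *Cyp4a31* and *Cyp4f40*, apart from the filters that removed a gene from the test. The other 6 were lost under at least 1 of them, and no call changed sign. Members that rose at least 2-fold numbered 1 in place of 2 with array weights, quantile normalization, median centring or an offset of 32, as the change of *Cyp2c55* was then under 1. They numbered 1 as well with dim probe sets left out, which kept 22 members, and 4 with control replicate 1 alone. Members that rose numbered 3 with dim probe sets left out and 4 with control replicate 1 alone, in place of 7. With each replicate left out in turn, 4 to 8 members rose and 6 to 9 fell, 1 to 3 rose at least 2-fold, and 6 fell at least 2-fold each time. Calls over all probe sets numbered 5088, against 3336 without control replicate 2, 3249 without mutant replicate 2 and 1733 with control replicate 1 alone. With control replicates 2 and 3 averaged, 5 members rose and 8 fell. *Trpm7* was called throughout, with changes from -1.21 to -1.04.

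The labels give both groups the numbers 1 to 3, and with these as a replicate block 8 members rose and 10 fell, 2 and 6 of them at least 2-fold, with 4957 calls over all probe sets. Deviations from the group means correlated at 0.17, 0.04 and 0.12 between samples with the same number. Between samples with different numbers they correlated at -0.16 to 0.09, and control replicate 2 correlated better with mutant replicate 3 (0.09) than with mutant replicate 2. These values do not settle whether samples with the same number were paired. Both replicates 1 held *Xist* (10.18 in mutant, 10.48 in control) with low *Eif2s3y* (3.56 and 3.63). *Eif2s3y* was at 7.71 to 8.50 in replicates 2 and 3 of both groups. With control replicate 1 alone the spread comes from the mutant arrays only, and the lone control is assumed to vary like them, and *Cyp2d22* then had 0.57 (adjusted p = 0.0945). Choosing the probe set with the lowest mean changed nothing, as each member has 1 own probe set.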
